A study of Rattus norvegicus with 18 samples.

Results

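Cultured rat 9L cells held at 0.2% oxygen for 16 h were compared with 9L cells held at 0.2% oxygen for 6 h, gene by gene. These were 6 of the 18 samples of the series, 3 cultures at each time, taken by their titles; no measured value entered the choice. 9L is a gliosarcoma line of the Fisher rat (strain as labelled) that is widely used as a glioma model. The cells carried no stated transgene or drug, and every culture grew in MEM with 12% newborn calf serum. The labels describe no clone and no separate experiments behind the cultures of a group, so the p-values reflect only how far the arrays of a group differ, and that variation can be technical. The 16 h hypoxic cultures are numbered 22, 28 and 29 and the 6 h hypoxic cultures 6, 13 and 26. Normoxic cultures at about 20% oxygen, 3 at 16 h and 3 at 6 h with the same numbers, supplied the same time difference without hypoxia. No 0 h culture was analysed here, and the 6 tumour samples entered only an alternative fit.

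When oxygen falls, the hydroxylases that mark the alpha subunits of hypoxia-inducible factor (HIF) for destruction slow down, HIF accumulates, and it turns on genes for glucose uptake, glycolysis, blood vessel growth and acid handling. Longer hypoxia also engages arms that do not need HIF: the unfolded protein response, a brake on protein and ribosome synthesis, and arrest of the cell cycle. In glioma, low oxygen is known for marking tumour areas that resist radiation.

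Levels are log2 signals of Affymetrix Rat Gene 1.0 ST probe sets, so a difference of 1 is a doubling. Of 27363 probe sets, 15097 carried exactly 1 gene symbol, and 14324 genes were read from 1 probe set each, the one with the highest mean over the 12 culture arrays. Array medians ran from 6.02 to 6.19, and arrays of a group correlated at 0.988 to 0.996. Hypoxic culture 28 at 16 h had the lowest mean correlation with its own group (0.988). The oxygen labels were borne out by Ankrd37, a gene that HIF induces, at 9.68 to 10.97 in the 6 hypoxic cultures and 7.04 to 7.54 in the 6 normoxic ones. Slc2a1, Car9, Bnip3 and Pdk1 also lay higher in every hypoxic culture than in any normoxic one. Hif1a and Epas1 overlapped between the oxygen settings, as did the HIF targets Vegfa (hypoxic from 8.31, normoxic up to 8.43), Pgk1 (11.56 and 11.66) and Ldha (12.57 and 12.71). The number of arrays, 3 in a group, limits the precision.

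Beside the array medians, the marker Vim of mesenchymal and glial cells stood at 11.96 to 12.36 in the 6 hypoxic cultures. Gfap, the defining astrocyte filament, stood at 4.87 to 5.19 and S100b at 4.30 to 4.92, below the array medians. Sox2 at 6.49 to 6.93 and Cspg4 at 6.39 to 7.39 lay above them, and Nes at 6.07 to 6.41 and Fabp7 at 5.82 to 6.29 lay around them. The 9 macrophage, 5 T cell, 3 endothelial and 5 muscle markers measured gave 0 calls between 6 h and 16 h of hypoxia (limma), with 1, 0, 0 and 1 at an unadjusted p below 0.05. Their mean levels did not part the times either: 5.59 to 5.67 at 6 h against 5.53 to 5.62 at 16 h for macrophages, 4.84 to 5.06 against 4.89 to 5.01 for T cells, and 5.02 to 5.22 against 5.05 to 5.30 for endothelium. For muscle they were 5.76 to 6.10 against 5.80 to 5.95. The 7 glial and neural stem cell markers also gave 0 calls (1 at an unadjusted p below 0.05), with mean levels of 6.81 to 6.98 at 6 h and 6.71 to 6.82 at 16 h.

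Between 6 h and 16 h of hypoxia, 67 of the 14324 genes were higher (0.468%) and 321 were lower (2.24%) at an adjusted p below 0.05 (limma, Benjamini-Hochberg over all probe sets). Among the higher ones were 3 of 28 measured genes of glucose uptake, glycolysis and glycogen, led by the glucose transporter Slc2a3. Among the lower ones were 6 of 21 genes of mitosis, 3 of 23 of ribosome production and 3 of 24 of the interferon response. All 3 interferon calls were lost under quantile normalization and under cyclic loess. Levels of 3013 of the 14324 genes (21%) did not overlap between the hypoxic times, and all 388 called genes were among them. A lack of overlap below is thus common with 3 arrays a side. Over probe sets, named or not, 801 were called (2.93%), 365 higher and 436 lower. The direction split moved with the scaling of the arrays: quantile normalization gave 421 higher and 280 lower, and cyclic loess 457 higher and 267 lower. A spread shared with the 6 tumour arrays left 94 probe sets called, and of the called genes named below only Spetex2el3, Aox1, Brca2, Srm, Cenpa, Has2, Ccnb2, Zc3hav1, Plec and Phlda3 passed in that fit. The 6 hypoxic arrays fitted alone gave 320, and 34 of the called genes named below lost their call there, Ero1a, Ddit3, Eno2 and Isg15 among them.

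Time and batch go together here, because 6 h and 16 h cultures carry different culture numbers and differently built sample codes. The normoxic cultures showed a time difference of their own: 125 genes higher (0.873%) and 505 lower (3.53%). Of the 388 genes called in hypoxia, 155 were called in the same direction between the normoxic groups, 11 higher and 144 lower. Over probe sets the same was true of 422 of the 801 hypoxic calls, 0 were called in the opposite direction, and 782 of 801 (97.6%) had a normoxic difference of the same sign. The hypoxic and normoxic differences, which share no array, correlated across the 14324 genes at a Pearson r of 0.65 and a Spearman rho of 0.59, as a description, since genes are not independent replicates.

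A gene's normoxic difference was called bounded where its 95% interval lay within -0.5 and 0.5 log2. A bounded difference is limited in size but not shown to be absent, and its interval can exclude 0, as for Ccnb2 below. The bound is also close to the smaller hypoxic differences it is set against. That held for 65 of the 388 genes called in hypoxia, 24 higher and 41 lower, against 64.8% of all genes. A further 168 hypoxic calls were neither called nor bounded in normoxia. The test of whether the hypoxic difference exceeded the normoxic one called 0 probe sets (limma, smallest adjusted p 0.98), with 1194 at an unadjusted p below 0.05. Over genes the unadjusted count was 648 (4.52%). No gene is therefore shown to change more between 6 h and 16 h in hypoxia than in normoxia after adjustment, and the values below are given side by side.

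**Figure D1:**
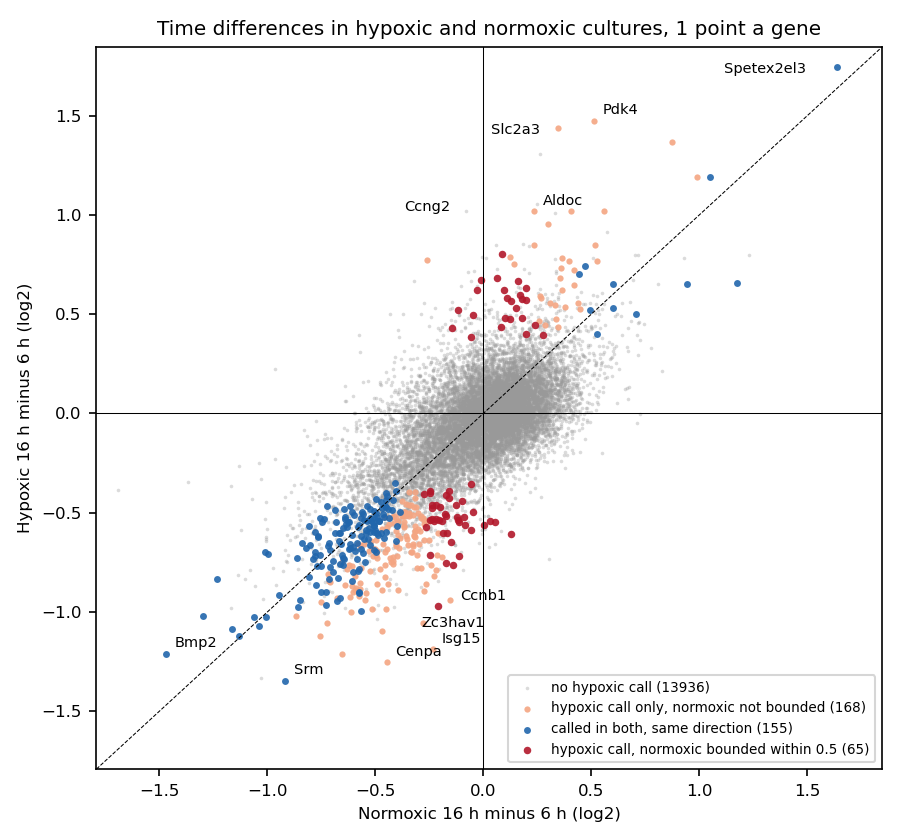
Each point is a gene, with the normoxic 16 h minus 6 h difference on the x axis and the hypoxic one on the y axis, both in log2; colours give the call, and the dashed line marks equal differences. Slc2a3, Aldoc and Ccng2 lie far above 0 on the hypoxic axis with normoxic differences of 0.35, 0.24 and -0.08, while Srm, Bmp2 and Spetex2el3 are displaced on both axes.

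The few genes of glucose uptake and glycolysis that passed were higher in the 16 h than in the 6 h hypoxic cultures. Of 28 measured genes of glucose uptake, glycolysis and glycogen, 3 rose, 0 fell and 25 did not pass, beside 0.468% of all genes higher and 2.24% lower. Their median difference was 0.24 in hypoxia and 0.05 in normoxia, against -0.03 and 0.01 over all genes. A positive difference was found for 24 of the 28 in hypoxia and 16 in normoxia. Over all 14324 genes it was found for 6281 in hypoxia and 7415 in normoxia. The unadjusted limma p was below 0.05 for 10 of the 28 in hypoxia and 1 in normoxia. The share of all genes at that limit was not counted, so such counts, here and for the lists below, have no background. The mean level of the list lay at 9.00, 9.33 and 9.35 in the 6 h hypoxic cultures and at 9.51, 9.57 and 9.45 in the 16 h ones. All 3 later cultures thus lay above all 3 earlier ones, with culture 6 the lowest of the 6.

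Slc2a3, a high-affinity glucose transporter also known as GLUT3, read 7.81, 8.70 and 8.86 in the 6 h hypoxic cultures 6, 13 and 26, and 9.95, 9.97 and 9.76 in the 16 h cultures 22, 28 and 29. The times did not overlap, and culture 6 was the lowest. The difference was 1.44 ± 0.23 (SE, n = 3 a group), or 2.71-fold, with adjusted p = 0.0055. In normoxia Slc2a3 read 7.36, 7.25 and 7.41 at 6 h and 7.74, 7.30 and 8.02 at 16 h, overlapping, with a difference of 0.35 that did not pass (adjusted p = 0.41). The excess of the hypoxic over the normoxic difference was 1.09 (unadjusted p = 0.0047, adjusted p = 0.98).

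Aldoc, the brain form of aldolase, split the same way: 6.22, 6.60 and 6.57 at 6 h of hypoxia and 7.57, 7.36 and 7.52 at 16 h. It rose by 1.02 ± 0.15 (2.03-fold, adjusted p = 0.0030), while the normoxic difference was 0.24. Eno2, the neuronal enolase, read 9.40, 9.84 and 9.85 at 6 h and 10.28, 10.87 and 10.25 at 16 h, a rise of 0.77 ± 0.16 (adjusted p = 0.025) with 0.39 in normoxia. The Eno2 call was lost without hypoxic 6 h culture 6 or 13 or without hypoxic 16 h culture 28, whereas the Slc2a3 and Aldoc calls survived each such omission. Pfkp, the platelet form of phosphofructokinase, stood at 9.23, 9.77 and 9.70 and then 10.21, 9.85 and 10.08, with a difference of 0.48 that did not pass (adjusted p = 0.076) but did under quantile normalization and under cyclic loess.

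Other widely used glycolytic HIF targets gave small differences, none of which passed. Ldha, lactate dehydrogenase A, differed by 0.16 (95% interval -0.05 to 0.37) and Pgk1, phosphoglycerate kinase, by 0.20 (-0.06 to 0.45). Pdk1, a kinase that restrains pyruvate oxidation, differed by 0.09 (-0.24 to 0.43). Slc2a1, the common glucose transporter GLUT1, read 10.01, 10.39 and 10.69 at 6 h and 10.46, 10.89 and 10.42 at 16 h, so that the times overlapped (difference 0.22, interval -0.14 to 0.59). Slc2a1 and Pdk1 were above every normoxic array at both times, at no less than 10.01 and 10.34 against no more than 9.19 and 9.11.

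The promoters of Aldoc and Eno2 are shown because both genes rose and both hold the core of the hypoxia response element, ACGTG or GCGTG on either strand, in capitals, within 250 bases before the start. These letters alone occur in 47% of the 11823 promoters of measured genes, so a match is a description of the sequence. The table holds 0 entries for Slc2a3 and Ero1a. Sequences are from RefSeq on build GRCr8, 5′ to 3′ on the gene's strand: Aldoc at chr10:63715391-63715480 on the plus strand, with 1 of its 3 matches shown, and Eno2 at chr4:159267315-159267404 on the minus strand.
Aldoc: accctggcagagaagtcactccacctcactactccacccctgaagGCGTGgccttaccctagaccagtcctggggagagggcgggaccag
Eno2: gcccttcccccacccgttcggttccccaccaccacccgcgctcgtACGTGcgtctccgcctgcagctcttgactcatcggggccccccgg

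Among 38 other HIF targets, only Ero1a rose, 0 fell, and 37 did not pass, beside 0.468% of all genes higher and 2.24% lower; a single call of 38 is no result about the list. The median difference was 0.25 in hypoxia and 0.05 in normoxia. A positive difference was found for 32 of the 38 in hypoxia and 25 in normoxia, beside 6281 and 7415 of all 14324 genes. At an unadjusted limma p below 0.05 there were 13 in hypoxia and 9 in normoxia. Ero1a, which oxidizes disulphide bonds in the endoplasmic reticulum, read 10.70, 10.98 and 11.10 at 6 h and 11.66, 11.90 and 11.27 at 16 h. Its rise of 0.68 ± 0.15 (1.60-fold, adjusted p = 0.024) had a bounded normoxic counterpart of 0.06, with normoxic values of 9.21 to 9.32 at 6 h and 9.27 to 9.40 at 16 h. The call was lost without hypoxic 6 h culture 6 or 13 or without hypoxic 16 h culture 22 or 28.

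Hypoxic 16 h culture 29 was the lowest of its group in several other HIF targets. Ccng2, a cyclin that slows the cell cycle, read 8.64, 8.84 and 8.68 at 6 h and 9.70, 10.34 and 9.18 at 16 h in cultures 22, 28 and 29. The times did not overlap, which held for 21% of all genes. The mean difference was 1.02 ± 0.28, yet Ccng2 did not pass (limma adjusted p = 0.066), and the normoxic difference was -0.08. Ankrd37 stood at 9.81, 9.68 and 9.84 and then 10.44, 10.97 and 9.85, a difference of 0.64 ± 0.21 (adjusted p = 0.13). Without culture 29, both Ccng2 and Ankrd37 passed.

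Vegfa, the main angiogenic growth factor, overlapped between times: 8.65, 8.37 and 8.31 at 6 h and 8.77, 9.52 and 8.32 at 16 h. Its difference was 0.43 ± 0.31 (adjusted p = 0.55), with an interval of -0.24 to 1.09. Normoxic culture 28 at 16 h was also the high one of its group, at 8.43 against 7.13 and 7.28. Car9, a membrane carbonic anhydrase that exports acid, differed by 0.36 in hypoxia and 0.42 in normoxia, neither called. Bnip3, a mitophagy receptor, differed by 0.20 in hypoxia (adjusted p = 0.40) and rose by 0.42 between the normoxic groups (adjusted p = 0.046).

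Of 12 measured HIF subunit and oxygen sensing genes, 0 were called (limma), with 3 at an unadjusted p below 0.05. Hif1a read 9.51, 9.72 and 9.63 at 6 h and 9.63, 9.93 and 9.71 at 16 h, a difference of 0.13 (interval -0.13 to 0.40). Epas1, the HIF-2 alpha subunit, stood at 5.47, 5.15 and 5.39 and then 5.30, 5.29 and 5.40, so its levels overlapped (interval -0.25 to 0.24). The smallest p in the list belonged to Egln2, an oxygen-sensing prolyl hydroxylase, at -0.43 ± 0.12 (adjusted p = 0.073). These are transcripts; HIF is known to be set mainly at the protein, which was not measured.

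Some genes of mitosis fell. Of 21 measured, 6 were lower and 0 higher, beside 2.24% and 0.468% of all genes, with 9 at an unadjusted limma p below 0.05. Between the normoxic groups 0 were called (4 at an unadjusted p below 0.05). The median difference was -0.22 in hypoxia and -0.04 in normoxia. A positive difference was found for 3 of the 21 in hypoxia and 8 in normoxia, beside 6281 and 7415 of all 14324 genes. The mean level of the list was 9.41, 9.64 and 9.36 in the 6 h hypoxic cultures and 9.04, 9.15 and 9.20 at 16 h, with no overlap. In normoxia it was 9.68, 9.71 and 9.52 at 6 h and 9.55, 9.42 and 9.64 at 16 h, with overlap.

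The clearest of the 6 was Ccnb2, cyclin B2, which drives entry into mitosis with Cdk1. It read 10.21, 10.25 and 10.39 at 6 h and 9.55, 9.55 and 9.60 at 16 h, a fall of 0.71 ± 0.10 (1.64-fold, adjusted p = 0.0026). The normoxic difference was bounded, at -0.25 (95% interval -0.46 to -0.04), and the hypoxic difference was lower than the normoxic one by 0.47 (unadjusted p = 0.0050). Ccnb2 was called in every alternative fit, though its fall was below the 1 log2 minimum used in an alternative count. Its sister Ccnb1 read 10.37, 10.66 and 10.40 and then 9.14, 9.61 and 9.86, a fall of 0.94 ± 0.17 (adjusted p = 0.011) beside -0.15 in normoxia; that call was lost without hypoxic 6 h culture 13.

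Cdc20, an activator of the anaphase-promoting complex, fell by 1.00 ± 0.24 (2.00-fold, adjusted p = 0.043) beside a normoxic -0.61. Aurka, a spindle pole kinase, fell by 0.86 ± 0.20 (normoxic -0.49), Kif20a, a kinesin of cytokinesis, by 0.72 ± 0.16 (normoxic -0.19) and Ube2c, the ubiquitin carrier of the anaphase complex, by 0.57 ± 0.13 (normoxic -0.37). Each of these last 4 calls was lost without hypoxic 6 h culture 13 and without hypoxic 16 h culture 22, and each without at least 1 other hypoxic culture. Dropping 6 h culture 6 ended the calls of Aurka and Ube2c and dropping 6 h culture 26 those of Cdc20 and Kif20a. Dropping 16 h culture 28 ended those of Cdc20, Aurka and Kif20a, and dropping 16 h culture 29 those of Cdc20 and Ube2c; without normoxic 16 h culture 22, or for Cdc20 also normoxic 6 h culture 6 or 13, Cdc20 and Aurka were lost too. Quantile normalization ended the calls of Cdc20, Kif20a and Ube2c, cyclic loess those of Cdc20 and Ube2c, and median centring those of Cdc20 and Aurka. The list also held the kinesin Kif11 at -0.11 and the topoisomerase Top2a at -0.07, neither called.

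Outside the list, Cenpa, the histone that marks centromeres, had the second largest fall of all genes in this comparison among those called. It read 7.26, 7.33 and 7.14 at 6 h of hypoxia and 5.56, 6.23 and 6.19 at 16 h. The fall of 1.25 ± 0.18 (2.38-fold, adjusted p = 0.0030) stood beside a normoxic -0.45 (interval -0.84 to -0.06), and the excess was -0.80 (unadjusted p = 0.0077). Cenpa was called in every alternative run.

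The promoters of Cenpa, Ccnb2 and Cdc20 are shown because these mitotic genes fell together and hold the cell cycle homology region, TTTGAA on either strand, in capitals. Of the 5 promoters found among 6 genes looked up, 3 held it; Ccnb1 and Kif20a did not in this window. It occurs in 13.9% of the 11823 promoters, and the genes were chosen for having fallen. Cenpa is at chr6:31431624-31431713, Ccnb2 at chr8:79981819-79981908 (1 of its 2 matches shown) and Cdc20 at chr5:137255806-137255895, all on the minus strand of GRCr8 (RefSeq), 5′ to 3′ on the gene's strand.
Cenpa: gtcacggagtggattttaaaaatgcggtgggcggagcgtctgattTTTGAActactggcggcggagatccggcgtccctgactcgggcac
Ccnb2: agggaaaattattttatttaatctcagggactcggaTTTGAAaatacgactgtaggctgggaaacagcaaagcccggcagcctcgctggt
Cdc20: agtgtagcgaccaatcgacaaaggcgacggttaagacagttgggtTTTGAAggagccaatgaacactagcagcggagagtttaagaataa

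Replication genes gave no calls. Of 27 measured genes of replication and nucleotide supply, 0 were called in either direction (limma; 5 at an unadjusted p below 0.05), with medians of -0.15 in hypoxia and -0.12 in normoxia. The list's mean level was 8.60, 8.73 and 8.71 at 6 h of hypoxia and 8.71, 8.07 and 8.85 at 16 h, so only culture 28 was low. Orc1, which loads the replicative helicase, carried that pattern at 7.72, 6.37 and 7.86, with a difference of -0.70 ± 0.31 (adjusted p = 0.27). Of 16 measured p53 targets and cell cycle brakes, 1 rose and 1 fell in hypoxia, beside 0.468% and 2.24% of all genes. That is no result about the list, whose medians were 0.07 in hypoxia and -0.05 in normoxia. Rb1, the retinoblastoma protein, rose by 0.78 ± 0.17 (7.78, 7.72 and 7.77, then 8.66, 8.57 and 8.39, with a normoxic difference of 0.36). The p53 target Phlda3 fell by 0.69 in hypoxia and by 0.71 in normoxia, both called. The Rb1 call was lost without any 1 of the 6 h hypoxic cultures or without 16 h culture 22 or 28, and the Phlda3 call without 6 h culture 6 or 13 or 16 h culture 28.

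Ribosome biogenesis genes were the list with the lowest median, -0.52 in hypoxia and -0.23 in normoxia over 23 measured genes. Of these, 3 fell and 0 rose in hypoxia, beside 2.24% and 0.468% of all genes, and 2 fell in normoxia, beside 3.53%. At an unadjusted limma p below 0.05 there were 16 in hypoxia and 6 in normoxia. The hypoxic difference was positive for 1 of the 23 and the normoxic one for 2, beside 6281 and 7415 of all 14324 genes. The list's mean level was 9.07, 9.19 and 9.18 at 6 h of hypoxia and 8.70, 8.25 and 8.99 at 16 h, culture 28 again the lowest. In normoxia it moved from 9.40, 9.42 and 9.31 to 9.07, 8.94 and 9.25, also without overlap.

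Wdr46, a nucleolar scaffold of the small ribosomal subunit, fell in both oxygen settings. It read 7.09, 7.15 and 7.13 and then 5.89, 5.75 and 6.39 in hypoxia, a fall of 1.12 ± 0.19 (2.17-fold, adjusted p = 0.0074), and it fell by 1.13 in normoxia (adjusted p = 0.0054). Rrs1, a factor of the large subunit, fell by 1.02 ± 0.24 beside a normoxic -0.87, and Bop1, which processes its RNA, by 0.82 ± 0.17 beside -0.46. Both of these calls were lost without any 1 of the 6 h hypoxic cultures and without 16 h culture 22 or 28, and that of Rrs1 also without any of 4 normoxic cultures (6 and 13 at 6 h, 22 and 28 at 16 h). The Rrs1 call was also lost under quantile normalization, cyclic loess and median centring. Myc itself differed by -0.19 in hypoxia and -0.23 in normoxia, neither called.

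Srm, spermidine synthase, had the largest fall among the called genes and is a known Myc target, though it was in no list. It read 9.95, 9.22 and 9.45 at 6 h of hypoxia and 8.19, 7.98 and 8.41 at 16 h, a fall of 1.35 ± 0.18 (2.54-fold, adjusted p = 0.0026). In normoxia it also fell, by 0.92 (adjusted p = 0.014). Its promoter at chr5:164308784-164308873 on the plus strand (GRCr8, RefSeq) is shown for the E-box CACGTG, the binding sequence of Myc and related factors, in capitals. CACGTG contains the ACGTG core above and occurs in 6.92% of promoters; Wdr46 did not hold it in this window.
Srm: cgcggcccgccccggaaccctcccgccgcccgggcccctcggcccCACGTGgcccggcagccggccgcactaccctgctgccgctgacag

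**Figure D2:**
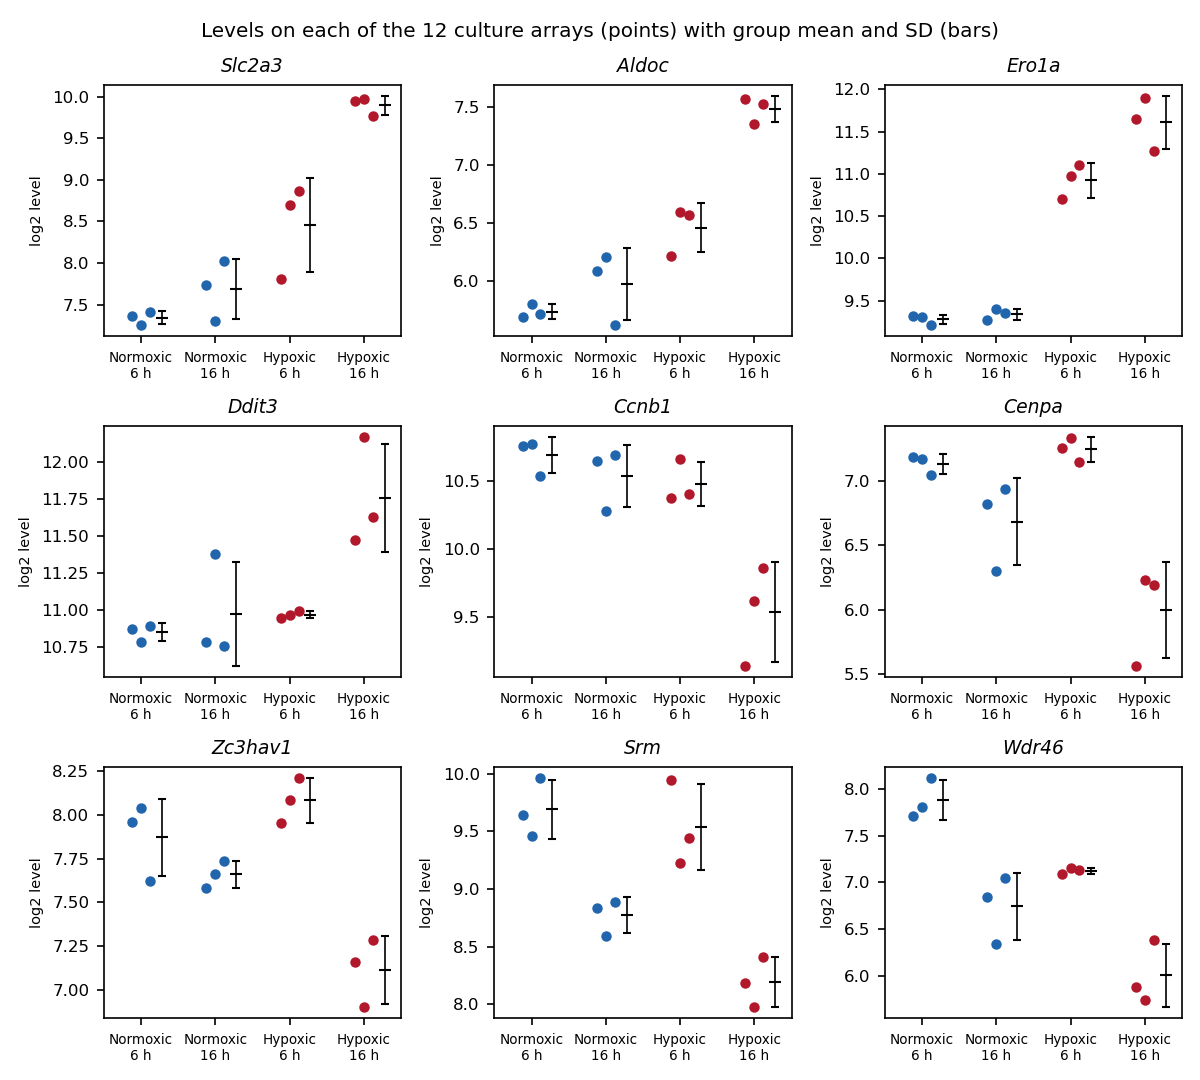
Each panel plots the log2 level of a gene on the 12 culture arrays (points; normoxic blue, hypoxic red) with the group mean and SD (n = 3). Slc2a3, Aldoc and Ero1a are above their 6 h hypoxic values on all 3 arrays at 16 h, Ccnb1, Cenpa and Zc3hav1 are below, and Srm and Wdr46 step down in normoxia as well.

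Of the 26 measured genes for the unfolded protein response and the integrated stress response, 1 rose and 1 fell in hypoxia, beside 0.468% and 2.24% of all genes, which 1 call a direction does not set apart, with medians of -0.03 in hypoxia and -0.11 in normoxia. Ddit3, the pro-death factor CHOP, read 10.95, 10.96 and 10.997 at 6 h and 11.48, 12.17 and 11.63 at 16 h, a rise of 0.79 ± 0.18 (1.73-fold, adjusted p = 0.033) beside a normoxic 0.12. Normoxic 16 h culture 28 read 11.38 against 10.79 and 10.76 in the other two, and the Ddit3 call was lost without any 1 of the 6 h hypoxic cultures or without hypoxic 16 h culture 28. Xbp1, whose spliced form drives secretory chaperones, fell by 0.68 ± 0.13 (adjusted p = 0.012; normoxic -0.39), a call that was lost without hypoxic 6 h culture 13. The chaperone Hspa5 differed by 0.05.

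Heat shock genes gave 1 call of 15, higher, beside 0.468% of all genes, which is no result about the list: Hspa4l, an HSP110-type chaperone: 9.34, 9.48 and 9.74 at 6 h and 10.57, 10.22 and 10.31 at 16 h. It rose by 0.85 ± 0.15 (adjusted p = 0.011; normoxic 0.24), and the call survived the omission of each array. NRF2 and pentose phosphate genes gave 0 calls of 15 (2 at an unadjusted p below 0.05), with transketolase Tkt at 0.53 (adjusted p = 0.077; normoxic -0.08) passing without hypoxic 16 h culture 29. Immediate early genes (16), cytokines and NF-kB targets (17), cholesterol genes (17) and clock genes (12) gave 0 calls each in hypoxia (limma), with 1, 2, 1 and 3 at an unadjusted p below 0.05. In the clock list, the repressor Nr1d1 read 7.39, 8.99 and 7.09 at 16 h, so that culture 28 stood alone.

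In the oxidative phosphorylation and TCA cycle list, 1 of 24 fell in hypoxia and 3 fell in normoxia, beside 2.24% and 3.53% of all genes, with medians of -0.12 and -0.14. The hypoxic count is near the background, as is that of the extracellular matrix list. The call, Uqcrc1 of complex III, fell by 0.50 in both settings; in hypoxia it was lost without 6 h culture 6 or 13 or 16 h culture 28. Of 21 extracellular matrix genes, 1 fell, the membrane protease Mmp14, by 0.54 ± 0.12 (normoxic -0.25), a call lost without 6 h culture 6 or 13 or 16 h culture 22 or 28. Has2, which makes hyaluronan and was in no list, fell by 1.21 ± 0.20 (8.59, 8.67 and 9.00, then 7.75, 7.08 and 7.80; adjusted p = 0.0075). Its normoxic difference was -0.65 (adjusted p = 0.080), and Has2 was called in every alternative run.

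Of 24 genes of the interferon response and antigen processing, 3 fell and 0 rose in hypoxia, beside 2.24% and 0.468% of all genes, with 10 at an unadjusted limma p below 0.05. In normoxia 0 were called (5 at an unadjusted p below 0.05), beside 3.53% of all genes lower and 0.873% higher. The medians were -0.10 in hypoxia and -0.07 in normoxia. The hypoxic difference was positive for 10 of the 24, at up to 0.60, and the normoxic one for 9. Over all 14324 genes these counts were 6281 and 7415. Isg15, a ubiquitin-like modifier, read 8.43, 7.96 and 7.16 at 6 h and 7.07, 6.16 and 6.77 at 16 h, a fall of 1.19 ± 0.28 (2.28-fold, adjusted p = 0.036) beside a normoxic -0.23. The times did not overlap, but 6 h culture 26 lay close to 16 h culture 22. Bst2, tetherin, fell by 0.86 ± 0.18 (normoxic -0.64) and Psmb8, an immunoproteasome subunit, by 0.46 ± 0.11 (normoxic -0.33). All 3 calls were lost without 6 h culture 6; Isg15 and Psmb8 also without 6 h culture 13, 16 h culture 29, or any of normoxic 6 h culture 13 and normoxic 16 h cultures 22 and 29. Isg15 was lost without 16 h culture 28 too, Bst2 without 6 h culture 26 or 16 h culture 22, and Psmb8 without either of those or normoxic 16 h culture 28. Quantile normalization and cyclic loess each ended all 3, median centring ended Isg15, and a trended and robust variance ended Isg15 and Psmb8.

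The promoter of Bst2 is shown for 2 overlapping matches to the core of the interferon-stimulated response element, GAAA followed after any 2 bases by GAAA, on either strand, in capitals. It lies at chr16:18255054-18255143 on the minus strand (GRCr8, RefSeq); 3.11% of promoters hold a match, and those of Zc3hav1 and Psmb8 did not in this window.
Bst2: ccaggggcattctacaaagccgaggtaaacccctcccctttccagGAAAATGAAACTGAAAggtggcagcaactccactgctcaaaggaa

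**Figure D3:**
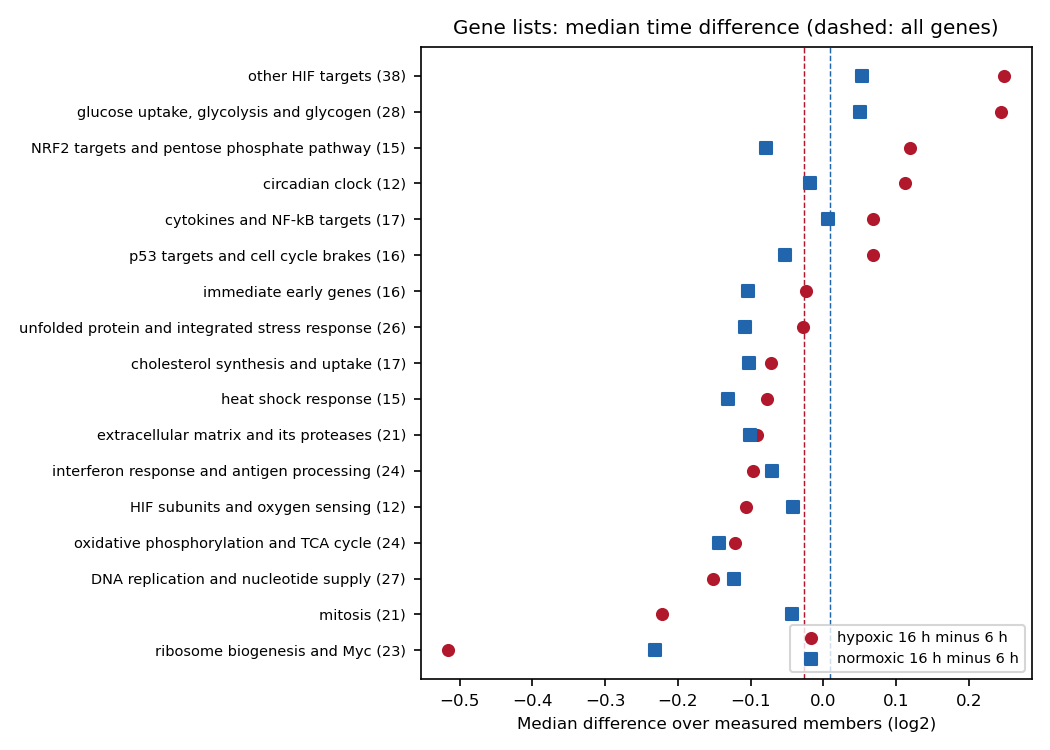
For each of the 17 gene lists (measured members in brackets), the median 16 h minus 6 h difference in log2 is plotted for hypoxic (red circles) and normoxic (blue squares) cultures; dashed lines are the medians of all genes. Both HIF target lists sit at 0.24 and 0.25 in hypoxia with normoxic medians of 0.05, mitosis at -0.22 against -0.04, and ribosome biogenesis is lowest in both.

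Genes called in hypoxia with a bounded normoxic difference are described next; the 10 largest in each direction were picked after their values were seen. The higher ones were led by Abca4, a retinoid transporter known from photoreceptors, at 5.70, 5.91 and 6.16 at 6 h and 6.89, 6.51 and 6.75 at 16 h. It rose by 0.80 ± 0.14 (1.74-fold, adjusted p = 0.0093) beside a normoxic 0.09 (interval -0.22 to 0.39), and its call survived the omission of each array. Next came Ero1a, Akap8l at 0.67, the translesion DNA polymerase Polk at 0.67, Cyp4f5 at 0.63, Prdm9 at 0.62 and Ccdc62 at 0.62. Etfdh, which passes electrons from fat oxidation to the respiratory chain, rose by 0.59, Klhdc1 by 0.58 and the diacylglycerol kinase Dgka by 0.57. The normoxic differences of these 10 ran from -0.03 to 0.20.

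The lower ones were led by Zc3hav1, an antiviral RNA-binding protein also known as ZAP. It read 7.95, 8.09 and 8.21 at 6 h of hypoxia and 7.16, 6.90 and 7.28 at 16 h, a fall of 0.97 ± 0.13 (1.96-fold, adjusted p = 0.0026). The normoxic difference was -0.21 (interval -0.49 to 0.07), and the excess of -0.76 had the unadjusted p 0.0012. Plec, the cytoskeletal linker plectin, read 8.78, 8.73 and 8.94 and then 8.08, 8.12 and 7.96. Its fall of 0.76 ± 0.11 (1.70-fold, adjusted p = 0.0026) stood beside a normoxic -0.14 (interval -0.37 to 0.08), and the excess was -0.62 (unadjusted p = 0.0010). Zc3hav1 and Plec were called in every alternative fit, though both falls were below the 1 log2 minimum used in an alternative count.

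The other lower genes of this kind were the glycosyltransferase B4galt5 (-0.75), the inflammasome adaptor Pycard (-0.72), Ccnb2, Apol9a (-0.65), Rbm43 (-0.61), the tRNA queuosine enzyme subunit Qtrt1 (-0.60), the ubiquitin-conjugating enzyme Ube2j1 of the endoplasmic reticulum (-0.60) and Galnt7 (-0.59). Their normoxic differences ran from -0.25 to 0.13. Of the 65 genes in this class, 40 had an unadjusted p below 0.05 for the difference of both time differences, a count that the class itself favours. Of the 20 genes named here, Ccnb2, Plec, Zc3hav1, Abca4 and Qtrt1 kept their calls whichever array was left out; each of the other 15 lost its call without at least 1 hypoxic array. Omission of hypoxic 16 h culture 29 ended only Prdm9, Ccdc62 and Rbm43 among them, and omission of each of the other 5 hypoxic arrays ended more. Omission of at least 1 normoxic array ended Prdm9, Ccdc62, Klhdc1, Dgka and Rbm43. Quantile normalization and cyclic loess each ended Pycard, Apol9a, Rbm43, Galnt7 and Prdm9, median centring ended Ccdc62, Klhdc1, Dgka, Prdm9 and Rbm43, and a trended and robust variance ended Rbm43.

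**Figure D4:**
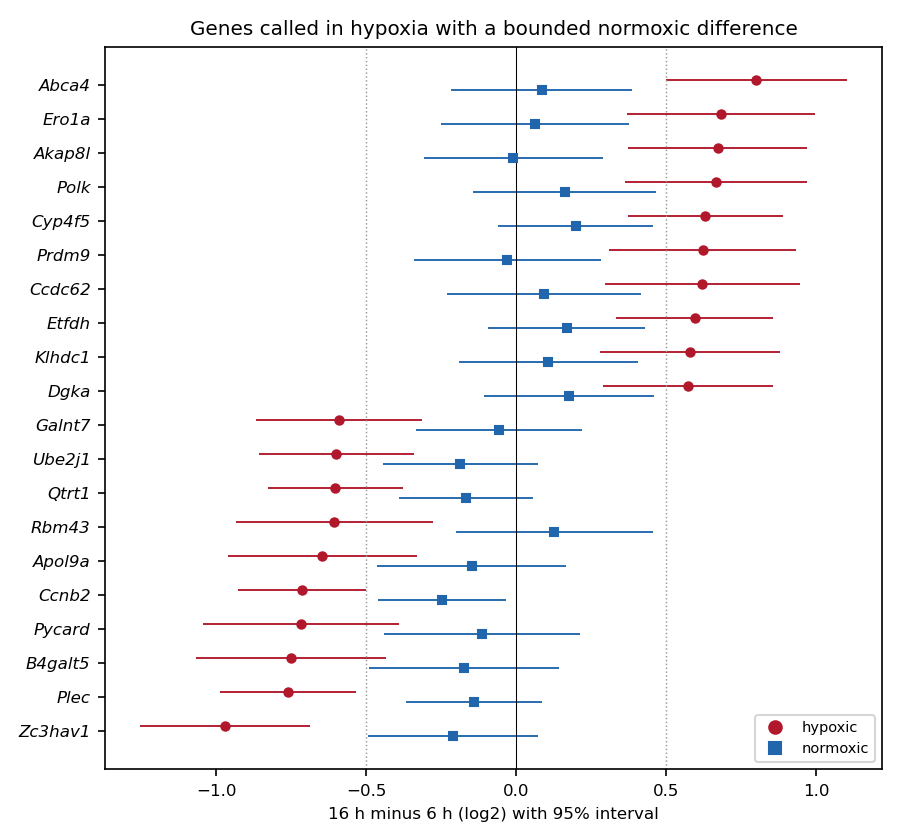
The 16 h minus 6 h difference in log2 with its 95% interval is plotted for 20 genes in hypoxic (red circles) and normoxic (blue squares) cultures; dotted lines mark the bounds of -0.5 and 0.5. Hypoxic differences run from -0.97 for Zc3hav1 to 0.80 for Abca4, and each normoxic interval lies inside the bounds by construction.

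Several of the largest hypoxic differences were matched in normoxia. Spetex2el3, a member of a rat Spetex gene family read by 4 probe sets whose reads can be shared among copies, had the largest rise, at 5.17, 5.17 and 4.96 and then 6.25, 7.48 and 6.80. It rose by 1.75 ± 0.24 in hypoxia and by 1.64 in normoxia (adjusted p = 0.0026 and 0.0039). Dppa3, a germ cell and early embryo gene with 5 probe sets, rose by 1.19 in hypoxia and 1.05 in normoxia. Slfn4 rose by 0.74 and 0.47 and the DNA repair gene Brca2 by 0.70 and 0.44, while Prp15 rose by 0.66 in hypoxia and 1.18 in normoxia. Brca2 and Spetex2el3 were called in every alternative fit, though the Brca2 rise was below the 1 log2 minimum used in an alternative count. The Prp15 call was lost without hypoxic 6 h culture 6 or 13 or 16 h culture 22 or 28.

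Among the falls matched in normoxia, Bmp2, a bone morphogenetic protein, read 8.04, 7.88 and 7.27 and then 6.69, 6.28 and 6.59, falling by 1.21 ± 0.20 in hypoxia and by 1.47 in normoxia. The tubulin-folding cofactor Tbcc fell by 1.09 and 1.17, and Morn2 by 1.07 and 1.04. Bmp2 kept its hypoxic call whichever array was left out, Morn2 lost it without 6 h culture 13, and Tbcc without 6 h culture 6 or 26 or 16 h culture 22 or 28.

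The remaining large rises were neither called nor bounded in normoxia. Pdk4, a kinase that restrains pyruvate oxidation, read 6.93, 7.24 and 6.76 and then 8.58, 9.30 and 7.47. Its rise of 1.47 ± 0.36 (2.78-fold, adjusted p = 0.043) stood beside a normoxic 0.51, and the call was lost without any 1 of the hypoxic cultures except 16 h culture 29, or without 4 of the normoxic ones (6 and 13 at 6 h, 22 and 29 at 16 h). It was also lost under quantile normalization, median centring and a trended and robust variance. Dhrs3, a retinal reductase, read 6.56, 7.18 and 6.62 and then 8.08, 8.83 and 7.55, rising by 1.37 ± 0.26 (adjusted p = 0.014) beside a normoxic 0.87; this call was lost without hypoxic 6 h culture 6. Aox1, aldehyde oxidase, rose by 1.02 ± 0.18 (7.77, 7.93 and 7.74, then 8.95, 9.02 and 8.53; normoxic 0.56) and was called in every alternative run. Culture 29 was the lowest of the 16 h cultures in each of these 3 genes.

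Spetex2g rose by 1.19 (normoxic 0.99), Klkb1, plasma prekallikrein, by 1.02 (normoxic 0.41) and the myosin Myo1f by 0.95 (normoxic 0.30). Each of these calls was lost without 2 or more of the hypoxic arrays. Quantile normalization also ended those of Spetex2g and Myo1f, cyclic loess that of Myo1f, and median centring and a trended and robust variance that of Spetex2g. Among the large falls of this kind, Pter fell by 1.10 ± 0.15 (9.42, 9.50 and 8.91, then 8.13, 7.996 and 8.42; normoxic -0.47), a call that survived the omission of each array. Emc8, a subunit of the membrane protein complex of the endoplasmic reticulum, fell by 1.12 ± 0.24 (normoxic -0.75), lost without 6 h culture 6 or 13 or 16 h culture 28.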

How the data were processed

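Per the labels' protocols, total RNA of each 9L culture was amplified, labelled with biotin and read on an Affymetrix Rat Gene 1.0 ST array. The authors deposited log2 values, and the submitters' processing notes name RMA and Partek 6.5b. The sources used here do not say whether the arrays were normalized in 1 run. RMA commonly equalizes array distributions, yet the 12 culture arrays as deposited had medians of 6.02 to 6.19 and SDs of 2.04 to 2.17. Differences are therefore relative to how the arrays were scaled, and the direction split moved with further scaling, as given above. Depth does not apply to arrays; their number limits the precision.

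One limma fit (version 3.58.1, R 4.3.3; lmFit, eBayes) of the 12 culture arrays in 4 groups gave both time differences and their difference, two-sided, with Benjamini-Hochberg adjustment over 27363 probe sets, threshold 0.05, no filter and no pseudocount. An interval is 95%. The share of all genes at an unadjusted p below 0.05 was not counted for either time difference, so list counts at that limit have no background beside them. Hypoxic counts at that limit not printed above were 5 for p53 targets and brakes and 5 for the unfolded protein list. They were 3 for heat shock, 6 for oxidative phosphorylation and 5 for extracellular matrix. The fit was tested on simulated data with independent normal noise and a small number of planted changes. It recovered 26% of planted 0.5 log2 changes in the hypoxic difference and 6% in the difference of differences. At 1 log2 it recovered 87.2% and 60.8%. The 0 calls of the difference of differences thus do not show that changes of these sizes are absent. Of the simulated calls, 5.87% and 4.16% were false. The comparison, its 17 pathway lists, 5 cell type lists and the genes named were chosen with earlier results of these data known. Named were the 10 largest called differences a direction, the 5 largest a direction called in both oxygen settings, the 4 smallest p of each list (not all are printed) and 10 fixed genes; the genes with bounded normoxic differences, all called list members, and list members printed as contrast were added after values were seen. No gene passed both the hypoxic test and the difference of differences.

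Symbols came from the platform annotation: 15420 probe sets were listed, 323 of them with several symbols, and 11943 were not listed; 15067 matched RefSeq genes by Entrez ID. Of 439 list members, 381 were measured. Promoters were looked up for 18 genes, and 12 had an entry.

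Culture numbers differ between 6 h and 16 h, so the hypoxic time difference has no pairs. Within a time, deviations of same-numbered normoxic and hypoxic arrays correlated at 0.13, 0.19 and 0.19 at 6 h and 0.13, 0.19 and 0.31 at 16 h. Normoxic 6 h culture 6 correlated more with a hypoxic culture of another number (0.18), so the check failed for it. For the remaining cultures, other numbers reached at most 0.02. Pairing by number within a time was therefore used only in alternative fits. It comes from the data, since the labels do not say it. Alternatives covered scaling, the filter on dim probe sets, the variance model, the arrays that share the spread, the replicate block, each array left out, the size of the change and the bound. The size and the bound were varied for counts of calls only, not for single genes.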

Additional observations from a re-analysis of the deposited data

How the results depend on the processing

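Hypoxic probe set calls, 801 as reported, numbered 320 when only the 6 hypoxic arrays were fitted, 94 when all 18 arrays shared the spread, 196 with a difference of at least 1 log2, and 295 to 1022 when 1 array was left out. Without hypoxic 6 h culture 6 or 13 there were 349 or 295, and without hypoxic 16 h culture 22 or 28 there were 512 or 388. Normoxic calls, 1330 as reported, numbered 823 with quantile normalization, 851 with cyclic loess, 137 with all 18 arrays, 246 at 1 log2 or more, and 363 to 1891 with 1 array left out (363 without normoxic 16 h culture 28). Calls shared by both settings, 422, numbered 66 with all 18 arrays, 138 at 1 log2 and 188 to 417 with 1 array left out. Bounded calls, 101, numbered 1 with all 18 arrays, 0 at 1 log2, 14 and 508 with bounds of 0.3 and 1 log2 (both chosen after seeing the data), and 31 to 144 with 1 array left out. The difference of differences gave 0 calls in every alternative, including culture number as a random replicate block (correlation 0.15; hypoxic calls 861) and as a fixed block (smallest adjusted p 0.83); the block changed no call of it. Higher probe sets made up 45.6% of hypoxic calls as reported, 60.1% with quantile normalization and 63.1% with cyclic loess. With identical probe sets counted once, 764 were called. None of the 60 called genes named changed sign in the alternatives run; Epas1, not called and near 0, did so in 4 omissions, with a range of -0.0989 to 0.0623 over the omissions. Of these 60, 9 kept their call in each of the 20 alternative fits, and 41 lost it when some array was left out. The minimum of 1 log2 was not applied to these 9, and some of them lie below it. Of 357 list medians under alternatives, 346 moved by less than the spread. The cause of these changes was not tested. The 3 cultures a group and the spread between them limit what can be called.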

Other observations

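The largest time differences of all belonged to probe sets that carry no single gene symbol. Probe set 10935449 was at 4.15 ± 0.17 (SD, n = 3) in 6 h hypoxic cultures and 9.67 ± 0.97 in 16 h ones, and at 3.48 ± 0.17 and 9.94 ± 0.34 in normoxia. Probe set 10935445 differed by 5.40 in hypoxia and 6.14 in normoxia. Of the 365 probe sets that were higher in hypoxia, 285 had no single symbol, and the median difference of these 285 was 1.07 in hypoxia and 0.99 in normoxia. Of the 285, 213 were also called in normoxia. Of the 436 lower ones, 105 had none, against 44.8% of all probe sets. Among the higher calls, 47 shared all their values with another probe set. These probe sets were chosen after their values were seen, and their part in the time or batch difference was not tested.

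Hypoxic 16 h culture 28 had the lowest mean level of the 3 in DNA replication genes (8.07 against 8.71 and 8.85) and ribosome biogenesis genes (8.25 against 8.70 and 8.99). It had the highest in clock genes (7.63 against 7.33 and 7.18). In normoxia, culture 28 at 16 h stood at 8.59 for replication, 8.94 for ribosome biogenesis and 7.24 for clock genes.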
